A study of Mus musculus with 16 samples.

Results

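Heat shock proteins are molecular chaperones that bind partly unfolded proteins and help them to fold, refold or be degraded. Here 10 of their genes were followed in mouse ventricle: Hspa1a, Hspa1b, Hspa8, Hsph1, Hsp90aa1, Dnajb1, Hspb1, Hspb6, Hspb7 and Cryab. They were taken by symbol from the 22372 genes of the deposited count table. Each matched 1 Ensembl identifier, and all 10 passed the filter on low values that left 13331 genes for testing. Male C57BL/6J mice, 10 to 12 weeks old when the experiment began and with no engineered allele named in the labels, formed 4 groups of 4 mice. Sham-Veh mice had sham surgery and vehicle, a solution of DMSO and dextrose in water. TAC-Veh mice had transverse aortic constriction (TAC), a narrowing of the aortic arch that loads the left ventricle with pressure, and the same vehicle. Sham-THZ1 and TAC-THZ1 mice had these operations and were given THZ1, a covalent inhibitor of the transcription kinases CDK7, CDK12 and CDK13, by intraperitoneal injection. Each dose was 10 mg/kg, with 2 doses daily, and dosing ran from day 1 to day 60 after the operation. Dose, route, schedule and age are those of the labels. The study's methods give the dose per day and a narrower age range. RNA came from a piece of ventricle, so that cardiomyocytes, fibroblasts, vessel cells and blood cells were measured together. The comparisons ask what pressure overload did to these transcripts, what THZ1 did in constricted and in sham hearts, and whether its effect differed between them.

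In the unstressed cell heat shock factor 1 is held inactive by chaperones, and when damaged proteins occupy these chaperones the factor is released and binds heat shock elements in DNA. Such an element is built of inverted repeats of GAA. HSP70 proteins (here Hspa1a, Hspa1b and Hspa8) hold and release client proteins with the help of J proteins such as Dnajb1, which deliver clients, and of exchange factors such as the HSP110 protein Hsph1. HSP90 takes over clients such as kinases and steroid receptors. The small heat shock proteins (Hspb1, Hspb6, Hspb7 and Cryab) use no ATP, hold unfolding proteins in solution, and are abundant in heart muscle, where Cryab guards desmin filaments and Hspb7 binds at the sarcomere.

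The bases before the start of transcription, where such elements are usually sought, are shown for Hspa1a, Hspa1b and Hspb1, which were higher in TAC-Veh and lower in TAC-THZ1, and for Hspb7, which was not lower there. RefSeq (assembly GRCm38.p6) gave a promoter window, 250 bases before to 50 after the start, for 7 of the 10 members. It gave none for Hspa8, Hsp90aa1 and Cryab. The short element of 2 units was searched as GAANNTTC or TTCNNGAA, and the long element of 3 units as GAANNTTCNNGAA or TTCNNGAANNTTC. The short forms read the same on both strands, the long forms are the reverse complement of each other, and every long match also holds a short one. Capitals mark the short element. The 250 bases before the start are printed 5′ to 3′ on the gene's own strand. They are chr17:34972157-34972406, minus strand, for Hspa1a, and chr17:34959239-34959488, minus strand, for Hspa1b. For Hspb1 they are chr5:135887669-135887918, plus strand, and for Hspb7 chr4:141420529-141420778, plus strand.
Hspa1a: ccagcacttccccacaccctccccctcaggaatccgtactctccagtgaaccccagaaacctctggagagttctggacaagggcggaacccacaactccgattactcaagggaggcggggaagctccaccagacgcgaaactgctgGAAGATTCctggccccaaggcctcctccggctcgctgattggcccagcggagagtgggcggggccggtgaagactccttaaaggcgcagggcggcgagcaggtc
Hspa1b: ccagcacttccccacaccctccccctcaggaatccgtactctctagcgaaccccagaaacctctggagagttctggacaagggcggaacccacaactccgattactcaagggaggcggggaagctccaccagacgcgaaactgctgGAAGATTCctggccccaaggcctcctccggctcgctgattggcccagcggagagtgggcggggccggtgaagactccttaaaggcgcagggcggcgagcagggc
Hspb1: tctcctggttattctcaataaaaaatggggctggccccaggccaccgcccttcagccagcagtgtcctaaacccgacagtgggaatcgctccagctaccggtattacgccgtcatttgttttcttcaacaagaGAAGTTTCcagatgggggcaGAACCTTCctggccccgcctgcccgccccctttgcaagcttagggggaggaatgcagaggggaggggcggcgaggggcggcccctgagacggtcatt
Hspb7: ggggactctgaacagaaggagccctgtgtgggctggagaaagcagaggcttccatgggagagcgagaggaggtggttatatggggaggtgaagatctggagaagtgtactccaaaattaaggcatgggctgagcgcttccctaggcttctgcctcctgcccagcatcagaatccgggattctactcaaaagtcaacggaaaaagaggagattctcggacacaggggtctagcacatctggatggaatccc
Hspa1a and Hspa1b differed at 3 of these 250 bases and each held 1 short element, which began 104 bases before the start. Hspb1 held 2 short elements, beginning 117 and 97 bases before the start, and Hspb7 held none. The long element was in none of these 4 windows. Over all 32851 mouse windows, 15.1% held a short element and 0.603% a long one. Of the other members with a window, the long element was matched in Hsph1 alone, in the bases after its start. Hsph1 also held a short element that began 33 bases before its first listed start, the second window of Hspb6 held 1 short element, and Dnajb1 held neither form. A match says only that these letters are in the window. Elements that depart from these letters were not searched for, so that a missing match does not show that a promoter lacks a heat shock element.

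Per length of exon, the members spanned more than 3 orders of magnitude in Sham-Veh hearts. Cryab, at 27088 ± 896 normalized counts per kb (SD, n = 4), and Hspb7, at 23523 ± 1707, were the most abundant. Hspb6 followed at 7233 ± 387, then Hspa8, the constitutive HSP70 that serves every cell, at 1881 ± 105, and Hspb1 at 1615 ± 154. Hsp90aa1, Hsph1 and Dnajb1 stood at 241 ± 33.3, 178 ± 29.1 and 136 ± 10.9 per kb. The stress-inducible pair was lowest, with Hspa1a at 7.78 ± 1.69 and Hspa1b at 5.93 ± 1.199. Libraries of neighbours in this order overlapped for Hspa8 and Hspb1, for Hsp90aa1 and Hsph1, for Hsph1 and Dnajb1, and for Hspa1a and Hspa1b, so that their order is not resolved. In TAC-Veh hearts Hspb1, at 3899 ± 368 per kb, stood above Hspa8, at 2384 ± 183, with no overlap. In TAC-THZ1 hearts the libraries of these genes overlapped again, at 2486 ± 97.9 and 2355 ± 129 per kb. The length used is that of all annotated exons of a gene together, 4156 bases for Hspa8 and 1031 for Hspb1. Their longest coding transcripts have 2394 and 930 bases. By these shorter lengths Hspa8 stands above Hspb1 without overlap in Sham-Veh and TAC-THZ1 hearts, and their libraries overlap in TAC-Veh hearts. The order and the overlap of Hspa8 and Hspb1 thus depend on which length is used, and their crossing in TAC-Veh hearts is not resolved. For Hsph1 the exon and transcript lengths are 7042 and 3802 bases, so that its place beside Hsp90aa1 and Dnajb1 depends on the length too. Summed, the 10 genes took 0.729% ± 0.0232 of all counts of nuclear genes in Sham-Veh hearts and 0.715% ± 0.0217 in Sham-THZ1 hearts. They took 1.05% ± 0.0751 of them in TAC-Veh hearts and 1.01% ± 0.0609 in TAC-THZ1 hearts (SD, n = 4 each).

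**Figure D1:**
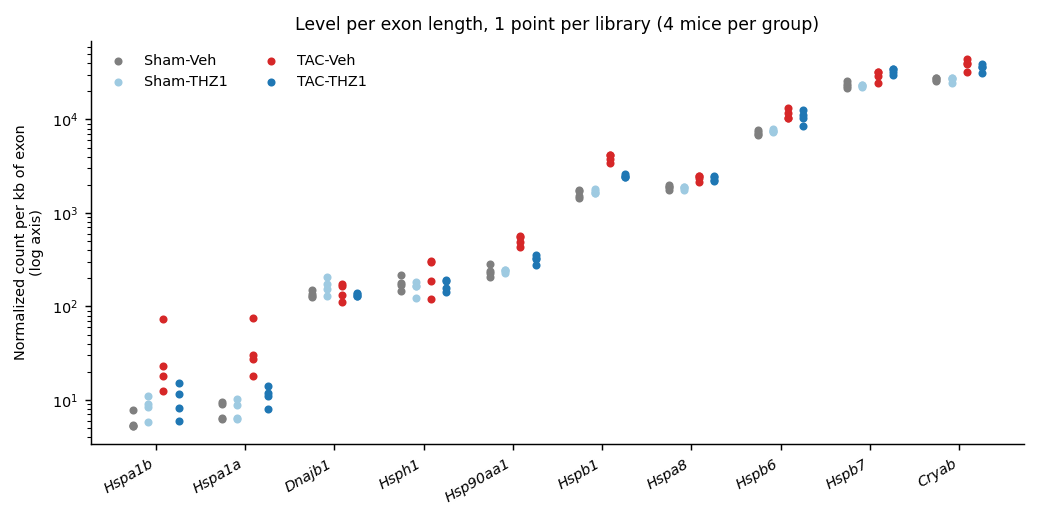
Normalized count per kb of exon (log axis) for the 10 genes, ordered by their Sham-Veh mean, with 1 point per library and 4 libraries per group in each colour. Hspa1a and Hspa1b sit lowest, near 7.78 and 5.93 per kb in Sham-Veh, and Hspb7 and Cryab highest, at 23523 and 27088.

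Pressure overload raised 8 of the 10 members and lowered none (limma on log2 normalized counts, adjusted p under 0.05 over all genes tested), where 21.4% of all genes tested were higher and 23.6% lower. The median log2 fold change of the members was 0.59, beside -0.00 over all genes. THZ1 in constricted hearts lowered 4 members and raised none, where 15.1% of all genes were higher and 14.2% lower. In sham hearts limma called no member for THZ1, and none had an unadjusted p under 0.05. Over all genes it called 0.0225% higher and 0.045% lower. The fits of edgeR and DESeq2 on the recovered reads also called 0 members. The count over all genes depends on how the spread is estimated. With the sham groups fitted alone 287 genes were higher and 178 lower, and with array weights 254 and 259. Both settings called 0 members. Comparing TAC-THZ1 with Sham-THZ1, 6 members were higher and none lower, at 11.4% and 12.8% of all genes. The effect of THZ1 differed between constricted and sham hearts for 3 members, all more negative after constriction, and for 4.4% of all genes in the positive and 5.62% in the negative direction. The first 2 of these comparisons share the TAC-Veh libraries, so that they are not independent of each other. Scaling by the total of nuclear genes in place of the deposited size factors left all of these member counts as they were. It moved the split over all genes, from 2857 higher and 3146 lower with TAC to 3496 and 2361, and from 2019 higher and 1899 lower with THZ1 in constricted hearts to 1440 and 2411.

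**Figure D2:**
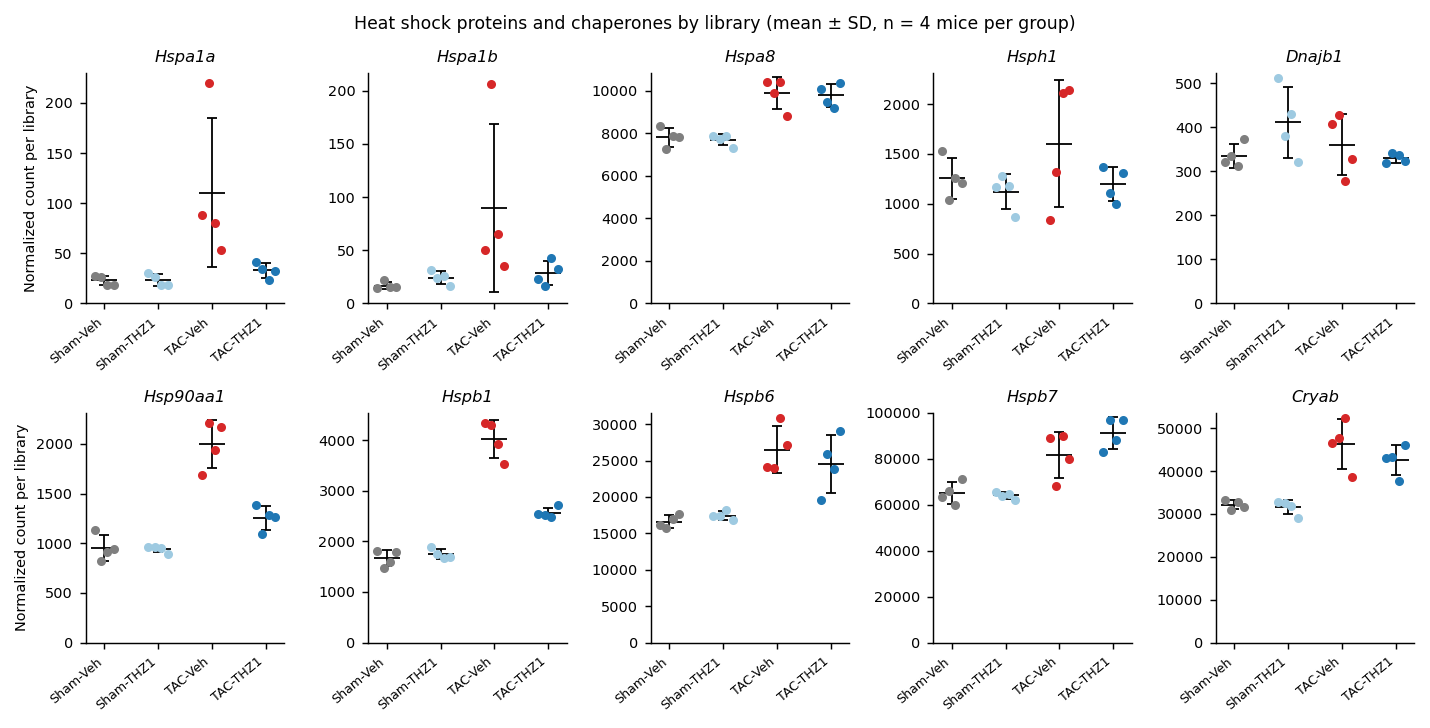
Normalized count per library (linear axis from 0) of each of the 10 genes by group, sham groups first, with vehicle before THZ1; points are mice, the bar is the mean and the whisker the SD (n = 4). Hspb1 in TAC-THZ1, 2479 to 2710, lies between the sham groups and TAC-Veh, while Hspb7 and Cryab overlap between the TAC groups.

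Depth was 21431703 to 35812869 counted reads per library, and mitochondrial genes took 33.2% to 44.7% of them. Cardiomyocyte and fibroblast markers moved with the groups. Counts of markers are read against 21.4% of all genes higher and 23.6% lower with TAC. With THZ1 in constricted hearts these shares were 15.1% and 14.2%. Of 10 cardiomyocyte markers 5 were lower and none higher in TAC-Veh against Sham-Veh, and 6 were higher and none lower in TAC-THZ1 against TAC-Veh. Of 7 fibroblast markers 5 were higher in the first comparison and 5 lower in the second. The sum of the fibroblast markers ran from 26833 to 29762 normalized counts in Sham-Veh and 26059 to 28568 in Sham-THZ1. After constriction it ran from 51523 to 91604 with vehicle and from 27895 to 39367 with THZ1. The sum of the cardiomyocyte markers ran from 1851150 to 1980020 in Sham-Veh and 1922600 to 1967650 in Sham-THZ1. After constriction it ran from 996141 to 1407700 with vehicle and from 1576590 to 1941600 with THZ1. Of 9 immediate early genes, which handling of tissue can also induce, 3 were higher with TAC (log2 fold changes of 2.29 for Atf3, 0.73 for Junb and 0.43 for Ier2) and 1 was lower with THZ1 in constricted hearts (-1.47 for Atf3). Of 6 macrophage markers 5 were higher with TAC. The 6 endothelial markers split with TAC, with 1 higher and 2 lower, and so did the 6 mural markers, with 1 higher and 2 lower. With THZ1 in constricted hearts 2 of 3 neutrophil markers tested were higher, 1 of 6 endothelial markers was higher and 3 were lower, 2 of 6 mural markers were lower, and 1 of 3 lymphocyte markers was lower. The summed neutrophil markers ran from 45.1 to 225.7 in TAC-Veh and from 137.6 to 6818 in TAC-THZ1, where replicate 1 was highest. That library was also highest in erythroid markers, at 31240 against 7124 to 18210 in the rest of its group. No cardiomyocyte or fibroblast marker was at 0 in all libraries. TAC-Veh replicate 2 stood apart, with the lowest mitochondrial share (33.2%), the highest fibroblast sum, the lowest cardiomyocyte sum and the highest Hspa1a and Hspa1b. Without TAC-THZ1 replicate 1 the members called were 8 with TAC, 3 with THZ1 in constricted hearts and 3 for the interaction. The part of these markers in the results that follow was not tested, and in a piece of ventricle fewer cells of a type and less RNA per cell cannot be told apart.

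Hspa1a and Hspa1b encode the stress-inducible HSP70, a pair of nearly identical intronless genes on chromosome 17 (NCBIM37 chr17:35106144-35109069 and chr17:35093381-35096183, minus strand). In Sham-Veh hearts Hspa1a stood at 27.6, 26.5, 18.6 and 18.4 normalized counts in replicates 1 to 4, and in TAC-Veh hearts at 88.2, 219.5, 80.2 and 52.8. It was higher in every TAC-Veh heart than in any Sham-Veh heart, with replicate 2 far above the rest, and the log2 fold change was 2.04 ± 0.33 (SE, adjusted p = 0.000124). In TAC-THZ1 hearts Hspa1a stood at 41.5, 34.4, 23.6 and 32.7, below all TAC-Veh libraries. The log2 fold change against TAC-Veh was -1.53 ± 0.33 (adjusted p = 0.00292). Against Sham-THZ1, at 29.8, 25.9, 18.7 and 18.2, it was 0.50 with a 95% interval of -0.20 to 1.19 (adjusted p = 0.282), and the groups overlapped. The effect of THZ1 on Hspa1a was more negative in constricted than in sham hearts by 1.55 ± 0.46 on the log2 scale (adjusted p = 0.0444). Leaving out any 1 of the 8 sham libraries, TAC-Veh replicate 2 or TAC-THZ1 replicate 2, 3 or 4 ended this last call, with adjusted p of up to 0.0905. Without TAC-Veh replicate 2, Hspa1a differed by 1.64 with TAC (adjusted p = 0.000137) and by -1.13 with THZ1 (adjusted p = 0.00649), and had an interaction of -1.15 (adjusted p = 0.0586).

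Hspa1b stood at 14.9, 21.7, 15.03 and 14.9 normalized counts in Sham-Veh and 50.6, 207, 65.4 and 34.9 in TAC-Veh. Again every TAC-Veh heart was above every Sham-Veh heart and replicate 2 was highest (log2 fold change 2.03 ± 0.41, adjusted p = 0.000887). In TAC-THZ1 the values were 22.9, 16.5, 42.3 and 32.7, and replicate 3 reached into the TAC-Veh range. The log2 fold change was -1.35 ± 0.41 (adjusted p = 0.0224), and without TAC-Veh replicate 2 it was -0.83 and no longer called (adjusted p = 0.0682). Leaving out TAC-THZ1 replicate 1 or 2 also ended the call (adjusted p = 0.0531 and 0.0769). Sham-THZ1 hearts held 31.0, 23.3, 25.4 and 16.2, and the THZ1 effect there was 0.49 with an interval of -0.39 to 1.36. The interaction was -1.83 ± 0.59 (adjusted p = 0.0559), and it became called without TAC-Veh replicate 1 or 4 or without TAC-THZ1 replicate 3 (adjusted p = 0.0420, 0.0210 and 0.0416).

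The levels of these paralogs are uncertain one by one. Of all 40-base windows in the Hspa1a transcript 63.8% occurred in another transcript, nearly all of them in Hspa1b, and of those in Hspa1b 64.8%. Only 14 to 307 and 13 to 289 reads per library were counted for them. When their normalized counts were added up, TAC gave a log2 fold change of 2.07 (adjusted p = 0.000124), and THZ1 in constricted hearts gave -1.42 (adjusted p = 0.00484) with -1.66 for the interaction (adjusted p = 0.0354). The sum was thus called in all 3, with all 16 libraries in the fit. It was not refitted without TAC-Veh replicate 2, the highest library for both genes. Reads that match both genes may have been counted for neither, and the sum does not bring these back. On the strand opposite to Hspa1a, 18.9% of its exon bases overlap the predicted gene Gm20481, which the strand-specific counting keeps apart.

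Hspa8, the constitutive HSP70 (chromosome 9), was higher with constriction and did not follow THZ1. Its normalized counts were 8330.2, 7260.2, 7858 and 7820.4 in Sham-Veh, 10446, 9923, 10429 and 8826 in TAC-Veh, and 10117, 9474, 9209.7 and 10356 in TAC-THZ1. All 8 constricted hearts lay above all sham hearts, and the TAC groups covered the same range. With TAC the log2 fold change was 0.34 ± 0.07 (adjusted p = 0.000622), and that between the TAC groups was -0.02 with a 95% interval of -0.16 to 0.12. TAC-THZ1 exceeded Sham-THZ1, at 7337 to 7881, by a log2 fold change of 0.35 ± 0.07 (adjusted p = 0.0026). Exons of Hspa8 overlap small nucleolar RNA genes of the Snord14 group on the same strand over 6.3% of their bases, and reads there may not have been counted for it.

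Hsph1, the HSP110 exchange factor, and Dnajb1, a J protein of the cytosol and nucleus that serves the inducible HSP70, passed the test in none of the 5 comparisons. Hsph1 was 838, 1321, 2115 and 2141 in TAC-Veh, against 1526, 1032, 1259.9 and 1206 in Sham-Veh and 1368, 1110.1, 1001 and 1307 in TAC-THZ1. The TAC-Veh hearts thus split widely, with replicate 1 below all Sham-Veh hearts and replicates 3 and 4 above them. With TAC the log2 fold change was 0.27 (interval -0.22 to 0.75, adjusted p = 0.369), and that with THZ1 in constricted hearts -0.33 (interval -0.82 to 0.15, adjusted p = 0.295). Without TAC-Veh replicate 1, the log2 fold changes were 0.54 (adjusted p = 0.0192) and -0.61 (adjusted p = 0.0148), so that this library decides both calls. Dnajb1 was 321, 336, 312 and 373 in Sham-Veh, 408, 429, 278 and 329 in TAC-Veh and 319, 341, 338 and 323 in TAC-THZ1, and the groups overlapped. Its mean was highest in Sham-THZ1, at 512, 381, 431 and 321, which overlapped the other groups, and there the log2 fold change was 0.27 with an interval of -0.01 to 0.56 (adjusted p = 0.757). Its log2 fold change with TAC was 0.09 (interval -0.20 to 0.38).

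Hsp90aa1, the inducible form of cytosolic HSP90 (chromosome 12), was higher with constriction and lower with THZ1 in constricted hearts. It stood at 1129.7, 818, 907 and 942 normalized counts in Sham-Veh and 958, 966, 952 and 891 in Sham-THZ1. In TAC-Veh it was 1689, 2209, 1937 and 2174, and in TAC-THZ1 1387, 1097, 1285 and 1259. TAC-Veh hearts were above all others, and TAC-THZ1 hearts were above all Sham-THZ1 hearts. The log2 fold change was 1.08 ± 0.10 with TAC (adjusted p = 9.15e-07), -0.67 ± 0.10 with THZ1 in constricted hearts (adjusted p = 0.00026) and 0.41 ± 0.10 for TAC-THZ1 against Sham-THZ1 (adjusted p = 0.00888). The THZ1 effect differed between constricted and sham hearts by -0.67 ± 0.14 (adjusted p = 0.0106). Without TAC-Veh replicate 2 these calls held for TAC (1.03), THZ1 (-0.62) and the interaction (-0.62).

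Hspb1 (HSP27), a small heat shock protein that binds actin filaments (chromosome 5), had the smallest adjusted p of the members in the TAC, THZ1 and interaction comparisons. Its normalized counts were 1802, 1480.0, 1585 and 1791 in Sham-Veh and 1879.8, 1759, 1667 and 1699 in Sham-THZ1. They were 4329, 4302, 3928 and 3520.5 in TAC-Veh and 2536, 2528, 2479 and 2709.6 in TAC-THZ1. The TAC-THZ1 hearts formed a narrow band between the sham hearts and TAC-Veh, overlapping neither. The log2 fold change was 1.27 ± 0.08 with TAC (adjusted p = 4.49e-08), -0.64 ± 0.08 with THZ1 in constricted hearts (adjusted p = 5.98e-05) and 0.55 ± 0.08 for TAC-THZ1 against Sham-THZ1 (adjusted p = 0.000518). The interaction was -0.72 ± 0.11 (adjusted p = 0.00223). In sham hearts the effect of THZ1 was 0.08 with an interval of -0.09 to 0.24.

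The other small heat shock proteins were higher in both constricted groups. Cryab, alpha B-crystallin (chromosome 9), was 33150.1, 30819.8, 32769 and 31659.6 in Sham-Veh, 46454, 47779.6, 52465 and 38589 in TAC-Veh and 43084, 43192, 37622 and 46175 in TAC-THZ1. Constricted and sham hearts did not overlap, and the TAC groups did. Its log2 fold change was 0.52 ± 0.09 with TAC (adjusted p = 0.000284), and it was -0.12 between TAC-THZ1 and TAC-Veh (interval -0.31 to 0.08, adjusted p = 0.353). Hspb6 (HSP20), a target of protein kinase A in muscle (chromosome 7), was 16143, 15695, 16968 and 17704 in Sham-Veh, 24108, 23915, 30841 and 27152 in TAC-Veh and 19524, 25841, 23796 and 29057 in TAC-THZ1. TAC-THZ1 replicate 1 was the lowest constricted heart, still above all sham hearts. Its log2 fold change was 0.67 ± 0.11 with TAC (adjusted p = 0.000111) and -0.12 with THZ1 (interval -0.34 to 0.11, adjusted p = 0.43).

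Hspb7, the cardiovascular small heat shock protein (chromosome 4), was the member with the most counts, at 63575, 66040.2, 59822 and 71099 in Sham-Veh, 89028, 67996, 89707 and 80104 in TAC-Veh and 82784, 96868, 88291 and 97040.4 in TAC-THZ1. TAC-Veh replicate 2 lay within the sham range, and TAC-THZ1 hearts were at or above the middle of the TAC-Veh range. The log2 fold change was 0.32 ± 0.10 with TAC (adjusted p = 0.016), a call that ended without Sham-Veh replicate 3 (adjusted p = 0.0559), and 0.16 with THZ1 in constricted hearts (interval -0.05 to 0.38, adjusted p = 0.232). Against Sham-THZ1, at 61970.4 to 65519, TAC-THZ1 was higher by 0.51 ± 0.10 on the log2 scale (adjusted p = 0.00303), and Hspb6 and Cryab were higher there by 0.48 ± 0.11 (adjusted p = 0.00528) and 0.43 ± 0.09 (adjusted p = 0.00478). Under quantile normalization the log2 fold change of Hspb7 with THZ1 in constricted hearts turned to -0.18 and that against Sham-THZ1 fell to 0.09, no longer called (adjusted p = 0.423). This gene ranked 26 of all genes by mean count, where that method gives a gene of the same rank the same value in every library.

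**Figure D3:**
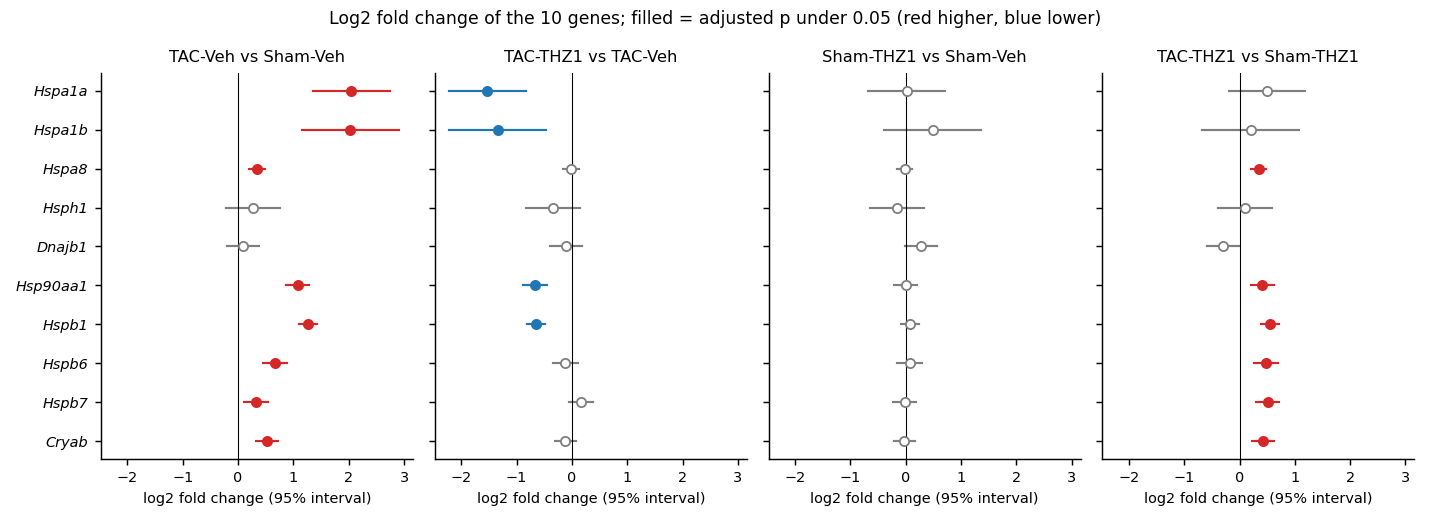
Log2 fold change (x axis) of each of the 10 genes (y axis) in 4 comparisons, with 95% intervals from limma; filled points passed an adjusted p of 0.05 (red higher, blue lower), open points did not. In the second panel Hspa1a, Hspa1b, Hsp90aa1 and Hspb1 lie at -1.53, -1.35, -0.67 and -0.64, and the other 6 have intervals that span 0.

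Apart from group means, some members varied together from mouse to mouse. The Pearson correlation of deviations from the group means over 16 libraries was 0.85 between Hspa8 and Cryab, 0.73 between Hspa8 and Hspb1, 0.68 between Hspa1a and Hspa1b, 0.62 between Hsph1 and Hsp90aa1 and 0.61 between Hspb6 and Hspb7. It was -0.53 between Hsp90aa1 and Hspb7. With the immediate early genes the highest such correlations were 0.86 between Hspa1b and Ier2, 0.78 between Hspb1 and Atf3, 0.74 between Dnajb1 and Fos and 0.72 between Hspa1b and Egr1, and the lowest was -0.69 between Hspb6 and Junb. Hspa1a stood at 0.66 with Ier2 and 0.62 with Junb. These values describe libraries that share their depth and scaling, and Hspa1a and Hspa1b also share sequence. The genes outside the members whose deviations were most like the mean of the 6 cytosolic chaperones (Hspa1a, Hspa1b, Hspa8, Hsph1, Hsp90aa1 and Dnajb1) were Ephb6 (r = 0.89), Slc33a1 (0.87), Mob3a (0.86), Aldh1a3 (0.86) and Ryk (0.85). Those most like the mean of the 4 small heat shock proteins were Fam82a1 (0.86), Bod1 (0.84), Zfyve19 (0.82), 5430437P03Rik (0.82) and Prdx6 (0.82). Both lists hold the highest values among all genes that passed the filter, and a choice from so many genes favours high values. They were not tested. Deviations were averaged without scaling, so that Hspa1a and Hspa1b, with the widest spread, weigh most in the mean of the 6 cytosolic chaperones. In TAC-Veh their SD was 67.6% and 88.6% of the mean, against 7.67% for Hspa8. Within these 6 genes the lowest correlation was -0.39, between Hsph1 and Dnajb1. Ephb6 and Aldh1a3 had mean normalized counts of only 36.1 and 46.9.

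The shares called among the other chaperones lay near those of all genes with TAC. Of 72 other chaperone and heat shock factor genes listed, 70 were tested, and 13 were higher and 15 lower in TAC-Veh against Sham-Veh, where 21.4% and 23.6% of all genes were. With THZ1 in constricted hearts 16 were higher and 9 lower, where 15.1% and 14.2% of all genes were. In sham hearts none was called by limma, edgeR or DESeq2 (4 had an unadjusted p under 0.05 in limma). In TAC-THZ1 against Sham-THZ1, where 11.4% of all genes were higher and 12.8% lower, 12 of these chaperones were higher and 7 lower. Their median log2 fold change with TAC was 0.04. Scaling by the total of nuclear genes changed these splits to 21 higher and 9 lower with TAC and to 10 higher and 12 lower with THZ1 in constricted hearts. Without TAC-Veh replicate 2 they were 12 and 10, and 9 and 9. Fitting TAC-THZ1 and TAC-Veh alone left 1 higher and 5 lower with THZ1. Over all genes that fit called 583 higher and 816 lower, in place of 2019 and 1899. It ended the THZ1 calls of Dnajb4, Dnajb5, Stub1, Sgta, Fkbp4, Nudc, Cct3, Cct8, Hspd1, Hspa9 and Clpp (adjusted p from 0.0538 to 0.144). Hsf1 was the 1 still higher, so that the THZ1 call of Hspa12a ended too. All of these genes are named below. The counts by class that follow are read against 21.4% of all genes higher and 23.6% lower with TAC, and 15.1% and 14.2% with THZ1.

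Among 7 other HSP70 genes 1 was higher and 1 lower with TAC, and 1 was higher and 4 lower with THZ1 in constricted hearts. Hspa1l, a relative of Hspa1a known from testis, rose from 152 to 205 normalized counts in Sham-Veh to 398 to 610.2 in TAC-Veh, without overlap (log2 fold change 1.51 ± 0.12, adjusted p = 2.06e-07), and was lower with THZ1 (-0.50 ± 0.12, adjusted p = 0.005). Hspa12a moved the opposite way, with log2 fold changes of -0.67 (adjusted p = 0.000251) and 0.34 (adjusted p = 0.0364). It was the 1 gene of this class called higher with THZ1, and no gene was without TAC-Veh replicate 2 or with nuclear total scaling. Hspa13 and Hspa12b were not called with TAC and were lower with THZ1, at log2 fold changes of -0.43 (adjusted p = 0.00259) and -0.44 (adjusted p = 0.00536). For Hspa12b the interaction was called too (-0.52, adjusted p = 0.035), and leaving out 1 library brought its adjusted p to as much as 0.0776.

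Of 12 J proteins 4 were higher and 3 lower with TAC, and 2 were higher and 2 lower with THZ1 in constricted hearts. Leaving out TAC-Veh replicate 2, upper quartile scaling and nuclear total scaling each left 1 lower with TAC. Dnaja4, a J protein of the cytosol, went from 2921 to 3274 normalized counts in Sham-Veh to 4207 to 4623 in TAC-Veh (log2 fold change 0.48, adjusted p = 3.21e-05) and 3175 to 3966 in TAC-THZ1 (-0.32, adjusted p = 0.00246). Dnajb4, another such protein, went from 3262 to 3464 to 3900.4 to 5975 (log2 fold change 0.46, adjusted p = 0.00179) and 2992 to 3806 (-0.42, adjusted p = 0.00629). In both genes the TAC-Veh libraries stood above all of the Sham-Veh and TAC-THZ1 libraries. Dnajb5 was lower with TAC (log2 fold change -0.46, adjusted p = 0.000915) and higher with THZ1 (0.40, adjusted p = 0.00473). Of 11 HSP70 co-chaperones 1 was higher and 1 lower with TAC, and 4 were higher and 1 lower with THZ1. Nuclear total scaling gave 3 higher with TAC and 2 with THZ1, and leaving out TAC-Veh replicate 2 left 1 higher with THZ1. Bag2, an exchange factor that restrains the ubiquitin ligase Stub1, rose from 851 to 908 in Sham-Veh to 1299 to 1446 in TAC-Veh (log2 fold change 0.65 ± 0.06, adjusted p = 1.39e-06) and stood at 972 to 1210.3 in TAC-THZ1 (-0.37 ± 0.06, adjusted p = 0.000654). Its interaction, on the same log2 scale, was called at -0.51 (adjusted p = 0.00404). Bag6 was lower with TAC (log2 fold change -0.33, adjusted p = 0.00546). Stub1 and Sgta, a co-chaperone with tetratricopeptide repeats, were higher with THZ1, at log2 fold changes of 0.28 (adjusted p = 0.00585) and 0.19 (adjusted p = 0.0213, up to 0.0745 without 1 library).

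Of 13 HSP90 and HSP90 co-chaperone genes 1 was higher and 2 lower with TAC. Unc45b, the muscle chaperone that folds myosin heads, had a log2 fold change of -0.60 (adjusted p = 0.000218), and Ahsa2 one of 0.26 (adjusted p = 0.0122). Fkbp4, an immunophilin of steroid receptor complexes, went from 7249 to 7816 normalized counts in Sham-Veh to 3404 to 6438 in TAC-Veh (log2 fold change -0.77, adjusted p = 0.000458). In TAC-THZ1 it stood at 6434 to 7441 (log2 fold change 0.65, adjusted p = 0.00356), with an interaction of 0.71 (adjusted p = 0.0389, up to 0.0795 without 1 library), and Nudc was the other gene of this list that was higher with THZ1 (log2 fold change 0.26, adjusted p = 0.0128). Of the 4 other small heat shock proteins Cryaa was at 0 in every library, and 2 of the 3 tested were higher with TAC, with log2 fold changes of 0.48 for Hspb8 (adjusted p = 0.000217) and 0.38 for Hspb3 (adjusted p = 0.0375, up to 0.125 without 1 library). Of the 8 subunits of CCT, the ring that folds actin and tubulin, 4 were higher with TAC and 2 lower with THZ1. Without TAC-Veh replicate 2 there were 2 higher with TAC, and with nuclear total scaling 6. The log2 fold changes of Cct8 were 0.34 with TAC (adjusted p = 0.000403) and -0.24 with THZ1 (adjusted p = 0.0101). Those of Cct3 were 0.27 (adjusted p = 0.00147) and -0.21 (adjusted p = 0.0145), and that of Cct5 with TAC was 0.16 (adjusted p = 0.0306, up to 0.0831 without 1 library).

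**Figure D4:**
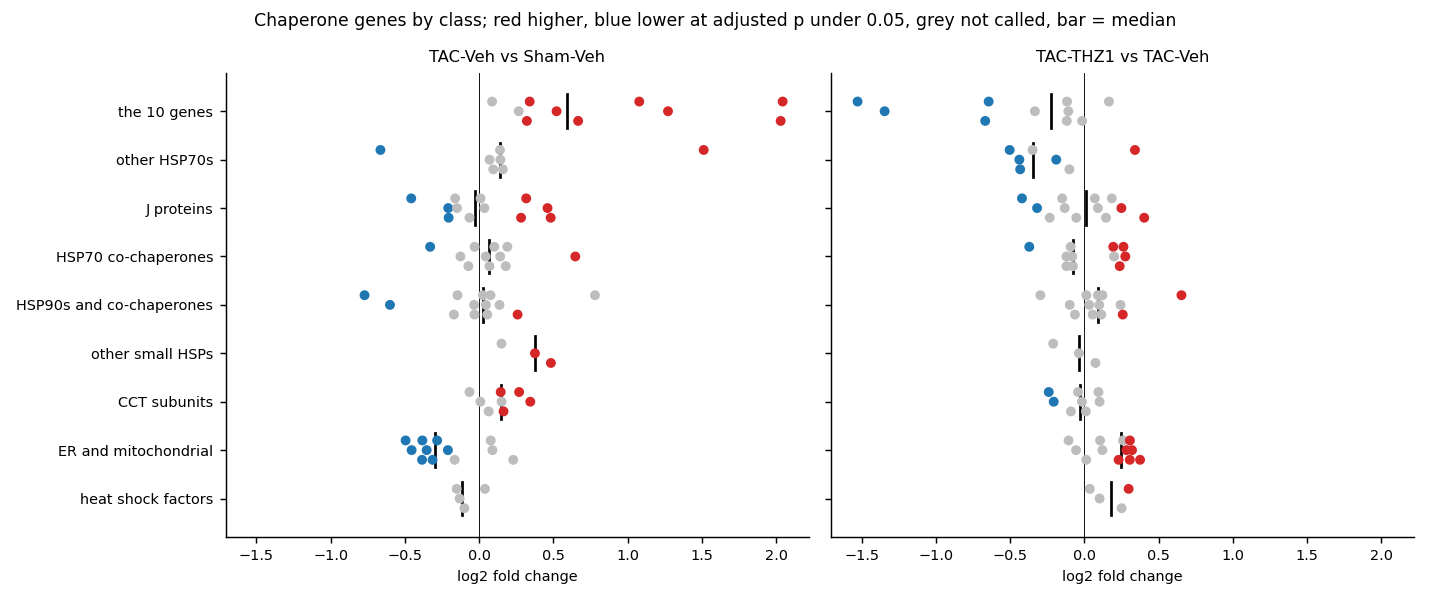
Log2 fold change (x axis) of the 10 genes and of the other chaperone genes by class (y axis), with 1 point per gene and a bar at the class median, for TAC-Veh against Sham-Veh (left) and TAC-THZ1 against TAC-Veh (right). The 10 genes have medians of 0.59 and -0.23, and the chaperones of the endoplasmic reticulum and mitochondria medians of -0.30 and 0.24.

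The 12 chaperones and proteases of the endoplasmic reticulum and mitochondria had 8 members lower and none higher with TAC, and 6 higher and none lower with THZ1 in constricted hearts. Hspd1 (HSP60), the mitochondrial chaperonin, went from 4889.9 to 5229.6 normalized counts in Sham-Veh to 3110.4 to 4401 in TAC-Veh (log2 fold change -0.50, adjusted p = 0.000281) and 4105 to 4809.9 in TAC-THZ1 (0.32, adjusted p = 0.0121). With TAC the log2 fold change of Trap1, the mitochondrial HSP90, was -0.38 (adjusted p = 0.000304), and that of Hspa5 (BiP), the HSP70 of the endoplasmic reticulum, was -0.46 (adjusted p = 0.000893). Clpp, a mitochondrial protease, and Hspa9, the mitochondrial HSP70, were higher with THZ1, at log2 fold changes of 0.37 (adjusted p = 0.00744) and 0.31 (adjusted p = 0.00584). Scaling by the total of nuclear genes left 1 higher and 4 lower with TAC and 4 higher with THZ1, and leaving out TAC-Veh replicate 2 left 1 higher and 5 lower, and 3 higher. Of the 4 genes Hsf1, Hsf2, Hsf4 and Hsbp1, the last a heat shock factor binding protein, 1 was called with THZ1 in constricted hearts. This was Hsf1, which drives the inducible heat shock genes and was 597 to 725 in TAC-Veh and 793 to 817 in TAC-THZ1, higher by 0.30 ± 0.06 on the log2 scale (adjusted p = 0.00224). Hsf1 stood at 666 to 733 in Sham-Veh and 773 to 839.7 in Sham-THZ1 (log2 fold change 0.21, adjusted p = 0.554), where the groups did not overlap either. The interaction was called for none of these 4 genes (0.07 to 0.11 on the log2 scale), so that no THZ1 effect particular to constricted hearts was shown for Hsf1.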

How the data were processed

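Total RNA from pieces of ventricle (1 mouse per library) was made into stranded mRNA libraries and read as single ends of 40 bases. Per the study's methods the authors aligned reads to the mm9 genome with TopHat2 2.1.1, counted them per GENCODE gene on the reverse strand with htseq-count, and divided the counts by DESeq2 size factors. The deposited signal values are these normalized counts, not adjusted for gene length. Divided by its library's smallest value above 0, every value in all 16 libraries (100%) was a whole read count within a relative tolerance of 1e-06.

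Values were taken as log2(normalized count + 1). Genes with 10 normalized counts or more in 4 libraries or more were tested with limma 3.58.1 (R 4.3.3): 4 group means in 1 fit, moderated variances with a trend, and Benjamini-Hochberg adjustment over 13331 genes in each of 5 contrasts. Called means an adjusted p under 0.05, errors of fold changes are SE, and intervals are 95%. All tests were two-sided. The fit was tried on simulated data in which a gene had the same dispersion in all groups, so that unequal spread between groups was not tested. Alternatives were other pseudocounts, filters, scalings, variance models, a replicate block, edgeR 4.0.16 and DESeq2 1.42.0 on the recovered reads, and leaving out each library. Levels between genes were compared per kb of exon.

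The members and gene lists were chosen with earlier results of these data known. Of each list of other chaperones, up to 3 genes with the smallest adjusted p among those called were named for TAC-Veh against Sham-Veh and for TAC-THZ1 against TAC-Veh, and up to 5 called over all lists for the interaction, besides the 5 genes most like the mean of each member class over 16 libraries. Coordinates are NCBIM37 (mm9), promoters GRCm38.p6.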

Additional observations from a re-analysis of the deposited data

Results flagged for a closer look

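The effect of THZ1 differed between constricted and sham hearts for 3 members and 3 other chaperones, by the interaction term in limma with adjusted p over all genes, where 4.4% of all genes tested had a positive and 5.62% a negative difference. The 3 other chaperones of 70 tested are no more than that background. Hspb1 had a difference of -0.72 on the log2 scale (adjusted p = 0.00223), Hsp90aa1 of -0.67 (adjusted p = 0.0106) and Hspa1a of -1.55 (adjusted p = 0.0444). For each of these members all 4 TAC-THZ1 hearts lay below all 4 TAC-Veh hearts, while Sham-THZ1 and Sham-Veh hearts overlapped. These ranges restate the values behind the 3 calls and add no support to them. Bag2 had a difference of -0.51 (adjusted p = 0.00404), Hspa12b of -0.52 (adjusted p = 0.035) and Fkbp4 of 0.71 (adjusted p = 0.0389).

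In 5 of 144 groups of 4 libraries, 1 library stood apart by Dixon's criterion, where chance gives about 1 in 20. Hspa1b was 21.7 normalized counts in Sham-Veh replicate 2, against 14.9 to 15.03 in the others. Hspa13 was 479.7 in Sham-THZ1 replicate 2, and Dnajb5 was 2541 in Sham-THZ1 replicate 1. In Sham-Veh replicate 1, Hspb8 was 15203 and Cct5 was 2920.3. TAC-Veh replicate 2, the highest library for Hspa1a (219.5) and Hspa1b (207), did not pass this criterion.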

How the results depend on the processing

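Of 680 comparisons of a member's fold change with its value under another setting, 664 kept the direction and the side of the threshold. When 1 library was left out, 756 of 800 did. In many of these comparisons the fold change could not move, and only its adjusted p could. This holds for other filters, robust variances, the replicate block and the compared groups fitted alone. It also holds where the library left out belonged to neither group compared. The replicate numbers did not pair the mice (correlations of same-numbered deviations from -0.43 to 0.12), and the fit with a replicate block called 8, 4, 0, 6 and 3 members, the same counts as without it, and 25, 26, 0, 15 and 3 other chaperones. A minimum mean of 50 counts left out Hspa1a and Hspa1b, so that 2 members were called for THZ1 in constricted hearts. For the other chaperones that comparison had 6 calls (1 higher, 5 lower) with the compared groups alone and 15 with array weights, the sham comparison 1 with either, TAC-THZ1 against Sham-THZ1 32 with array weights (10 to 23 without 1 library), and the interaction 5 with quantile normalization, 7 with array weights and 5 with DESeq2 (1 to 12 without 1 library). The cause was not tested. Calls also ended for Hspa1b with THZ1 (adjusted p = 0.106) and Hspb7 with TAC (0.0748) in the compared groups alone, for Hspb7 with TAC (0.0515) and the Hspa1a interaction (0.0637) with no filter, and for that interaction with edgeR (0.0517). The Hspa1b interaction was called with array weights (0.0232) and DESeq2 (0.0161). Without Sham-THZ1 replicate 4, Dnajb1 was lower in TAC-THZ1 than in Sham-THZ1 (-0.41, adjusted p = 0.04998).

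Signs turned only for log2 fold changes that were not called: Hspa8 between the TAC groups with array weights (0.017); the Hspa8 interaction with upper quartile (-0.0022), quantile (-0.066) and nuclear total scaling (-0.040); Hsp90aa1 in sham hearts with array weights (0.028); and Hspb7 with quantile normalization (-0.18 between the TAC groups and -0.18 for the interaction). Leaving out 1 library moved the sham comparison from -0.11 to 0.12 for Hspa1a, -0.056 to 0.010 for Hspa8, -0.070 to 0.085 for Hsp90aa1, -0.062 to 0.021 for Hspb7 and -0.043 to 0.014 for Cryab. It moved TAC-THZ1 against Sham-THZ1 from -0.012 to 0.42 for Hspa1b and -0.022 to 0.18 for Hsph1, Dnajb1 with TAC from -0.0030 to 0.20, Hspa8 between the TAC groups from -0.070 to 0.013, and the interaction from -0.049 to 0.040 for Hspa8 and -0.45 to 0.0012 for Hsph1. Depth limits Hspa1a and Hspa1b most, with as few as 14 and 13 reads in a library.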
